A study of Mus musculus with 2 samples.

Results

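The genes described here, apart from Psmc3ip, encode the proteasome and its close partners. They are the protein-coding mouse genes of the GENCODE vM21 annotation whose symbol begins with Psma, Psmb, Psmc, Psmd or Psme followed by a number, and 45 of 21938 protein-coding genes met that rule. The material was liver from embryos of strain C57BL/6N,129 at 13.5 days, and every sample carried the alleles that the labels call LCR deletion and HET globin mutation, with sex not recorded. The study comprised 2 DNase-seq libraries labelled as biological replicates 1 and 2, which came from separate tissue samples with 1 donor identifier. They form 1 group with no wild-type or untreated liver beside it, so nothing below compares genotypes, and the labels do not state how far the deletion extends.

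DNase-seq finds stretches of open chromatin, where the enzyme DNase I can cut the DNA. The deposited peak lists give each open stretch a signal value. The deposited footprints are short stretches inside open chromatin that were cut less than their surroundings, as happens where a protein covers the DNA. A gene is called open here when the longer peak list of a library holds a peak within 1000 bases of any annotated start of the gene, and its promoter value is that of its highest such peak. The normalisation between the libraries is not given, so the values of each are set side by side.

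The proteasome is the large protease that degrades proteins tagged with ubiquitin. Its 20S core is a barrel of alpha rings, which gate the entrance, and beta rings, which hold the proteolytic sites. The 19S cap recognises ubiquitin, removes it, and unfolds the substrate with a ring of ATPases. Under interferon, and in cells of the immune system, the catalytic beta subunits can be replaced by Psmb8, Psmb9 and Psmb10 to form the immunoproteasome, which favours peptides suited to antigen presentation. Psmb11 takes such a place in thymic epithelium and Psma8 replaces an alpha subunit in the testis. The red blood cell lineage, which makes up much of the embryonic liver, is known to degrade many of its proteins through this pathway as it matures.

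Of the 45 genes, 43 were open in replicate 1, where 58.5% of all protein-coding genes were open, and 42 were open in replicate 2, where 55.4% were. The 42 were open in both libraries, against 54.1% of all protein-coding genes, and all 42 were also open in the shorter, stricter peak list of both, against 48.8%. All 31 constitutive subunits, all 3 assembly chaperones and all 4 activators were open in both. The genes with no promoter peak in 1 or both libraries were Psmb8, Psmb11 and Psme2b. Promoter class went with openness across the genome. All 32 of the proteasome genes with a CpG-rich promoter were open in both libraries, where 86.6% of all such genes were. Of the other 13, 10 were open in both, where 28.2% of genes without a CpG-rich promoter were. Class was read at the start of the gene record, which lies far upstream of the open start in Psma6, Psmd5 and Psmd9.

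Of the short sequences searched in the footprints of these promoters, 1 differed most in share from all open genes. CCGGAA, the core bound by ETS-family transcription factors, lay in or within 5 bases of a promoter footprint of both libraries in 15 of the 42 genes, or 35.7%, against 10.3% of all open protein-coding genes. The count is by gene, and in Psmd2 and Psmd10 the matches of the libraries lay in different footprints. A match of so few letters is a description and does not show which protein was bound. The following footprints come from core, cap and activator genes, each printed with 5 flanking bases on the gene's own strand. They are shown because both libraries had a footprint with the match at the same place. Those of Psmb10 and Psme2 were centred at 1337.5 and -433 bases from the gene start, where negative positions are upstream. Coordinates are GRCm38 (mm10), the sequence is that of replicate 2, and capitals mark CCGGAA or its reverse complement TTCCGG.
Psmb4, chr3:94886939-94886968, minus strand: ggaccacttccgtTTCCGGtgacgctagcg
Psmc1, chr12:100110174-100110196, plus strand: cTTCCGGcggtggcgatttggag
Psmc5, chr11:106256078-106256098, plus strand: ccgcccattgacCCGGAActg
Psmd4, chr3:95042733-95042749, minus strand: tacagctgTTCCGGAAg
Psmd14, chr2:61711729-61711753, plus strand: gaagccgggaacCCGGAAgtacttc
Psmb10, chr8:105937096-105937117, minus strand: agaccaagctgagTTCCGGAAg
Psme2, chr14:55591535-55591557, minus strand: tatcccgccccTTCCGGagggac
Psme3, chr11:101316198-101316225, plus strand: gattggctgtgacgcaacTTCCGGcgtg

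The open proteasome genes had a higher median promoter value than open genes in general. The median of the proteasome genes was 7.89 in replicate 1, against 5.21 over all open protein-coding genes, and 4.48 in replicate 2, against 3.60. Of the 43 genes open in replicate 1, 33 were above the median of all open genes, and of the 42 open in replicate 2, 29 were. At the 75th percentile the proteasome genes had 11.9 against 10.1 for all open genes in replicate 1, and 5.32 against 5.50 in replicate 2. At the 95th percentile the proteasome genes were lower in both libraries, 14.2 against 18.2 in replicate 1 and 7.60 against 8.08 in replicate 2. The values ran from 0.789 to 18.3 in replicate 1 and from 1.16 to 7.85 in replicate 2. Ranked among all open genes, they lay above 10.3% to 95.2% of them in replicate 1 and above 15.5% to 94.0% in replicate 2. With 2 libraries of 1 group these are descriptions, and the values carry counting intervals and no test.

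**Figure D1:**
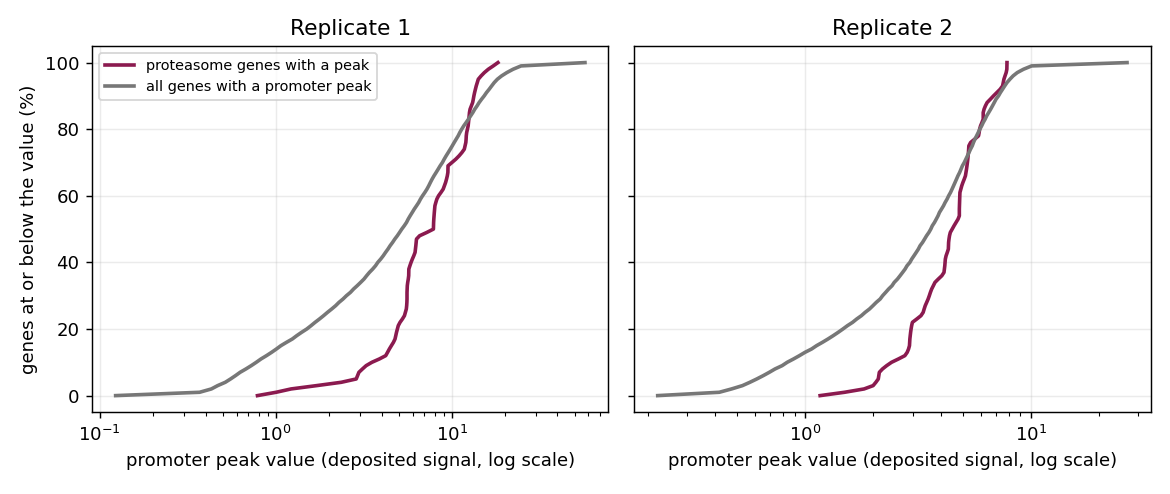
Share of genes (vertical axis, percent) at or below each promoter value (horizontal axis, deposited signal, log scale) in replicate 1 (left panel) and replicate 2 (right panel), for proteasome genes with a promoter peak and for all protein-coding genes with one. The proteasome curve lies to the right over its lower part, with medians of 7.89 against 5.21 in replicate 1 and 4.48 against 3.60 in replicate 2. The curves cross in the upper part, more than once in replicate 2. Above the last crossing the proteasome genes had lower values than all open genes at the same percentile.

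All 7 genes of the alpha ring were open, with a median value of 7.89 in replicate 1 and 4.31 in replicate 2. Psma2 had the highest value of the ring in both libraries, 14.2 in replicate 1 and 6.89 in replicate 2, which placed it above 87.8% and 88.0% of all open genes. Its highest peak lay at chr13:14612981-14613220 in replicate 1, just upstream of its start and over the start of the divergent gene Mrpl32, which encodes a mitochondrial ribosomal protein. Psma1, Psma3, Psma4, Psma5, Psma6 and Psma7 ranged from 4.76 to 11.8 in replicate 1 and from 3.31 to 4.84 in replicate 2. The lowest of the ring was Psma4 in replicate 1 and Psma7 in replicate 2.

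The 7 constitutive genes of the beta ring were open as well, with medians of 6.20 in replicate 1 and 4.38 in replicate 2. The non-catalytic Psmb2 and Psmb3 headed the ring, Psmb3 in replicate 1 with 13.4 and Psmb2 in replicate 2 with 6.36. The catalytic subunits were lower. Psmb5, which carries the chymotrypsin-like activity, had 4.46 in replicate 1 and 3.40 in replicate 2. Psmb6, the caspase-like subunit, had 6.20 and 2.37 in replicates 1 and 2, above 56.4% and 32.4% of open genes. Psmb7, the trypsin-like subunit, had 5.58 in replicate 1 and 4.38 in replicate 2. The catalytic subunits thus lay above 32.4% to 60.7% of open genes over both libraries, and Psmb6 was the one of them whose rank differed most. Psmb4 was the lowest of all constitutive subunits by mean rank, with 2.98 in replicate 1 and 2.94 in replicate 2. Psmb1 had a peak at its start, 9.52 in replicate 1 and 4.70 in replicate 2, and a second one inside the gene near another annotated start, with 8.10 and 5.13 in replicates 1 and 2, so that its highest peak differed between the libraries.

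The 6 ATPases of the 19S base had medians of 7.57 in replicate 1 and 4.56 in replicate 2, and they spread widely. Psmc4 had the highest value in replicate 1, 13.8, with 5.95 in replicate 2. Psmc5 had 12.7 in replicate 1 and 7.49 in replicate 2, the highest there. Psmc1, the lowest in both libraries, stood at 3.35 in replicate 1 and 2.80 in replicate 2. The other low ATPase gene was Psmc2, with 4.87 in replicate 1 and 2.91 in replicate 2. The ATPases form a single ring with 1 copy of each. Psmc5 and Psmc1 had the highest and lowest mean rank of the 6, so this pair was picked by these same values. Their counting intervals, which hold counting error alone, did not overlap in either library, as that choice made likely. The Psmc5 peak is shared with the divergent gene Ftsj3. For Psmc5 the intervals were 11.9 to 13.5 and 6.87 to 8.14, and for Psmc1 they were 2.97 to 3.77 and 2.43 to 3.21, in replicates 1 and 2.

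The 11 non-ATPase subunits had the highest median of the constitutive groups, 8.31 in replicate 1 and 5.25 in replicate 2. In each library 10 of the 11 were above the median of all open genes. Psmd12, a subunit of the lid, had the highest mean rank of all constitutive subunits, with 15.8 in replicate 1 and 7.83 in replicate 2. Psmd2, the large scaffold on which ubiquitin shuttle factors dock, had 12.4 and 7.85 in replicates 1 and 2. Psmd4, a ubiquitin receptor, had 13.2 in replicate 1 and 6.15 in replicate 2. The exception was Psmd14, the deubiquitinase that cuts the ubiquitin chain from the substrate, with 4.21 in replicate 1 and 2.90 in replicate 2. Among the lid subunits Psmd12 was the highest and Psmd14 the lowest in both libraries. The remaining 7, Psmd1, Psmd3, Psmd6, Psmd7, Psmd8, Psmd11 and Psmd13, ranged from 5.38 to 12.6 in replicate 1 and from 3.62 to 6.15 in replicate 2.

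Psmd5, Psmd9 and Psmd10 are named as subunits but act as chaperones that assemble the 19S base and then leave it. Psmd5 had the highest promoter value of all 45 genes in replicate 1, 18.3, and 7.61 in replicate 2, above 95.2% and 92.7% of open genes. Its peak lay at chr2:34870921-34871140 in replicate 1. Psmd9 had 12.1 in replicate 1 and 5.20 in replicate 2. Psmd10, on the X chromosome, was the low one, with 5.54 in replicate 1 and 2.11 in replicate 2. Its peak was shared with the divergent autophagy gene Atg4a.

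The activators cap the core in place of the 19S cap. Psme1 and Psme2 encode the interferon-inducible PA28 alpha and beta, which form a ring together. Psme1 had 2.86 in replicate 1 and 1.97 in replicate 2, while Psme2 had 9.29 in replicate 1 and 4.85 in replicate 2. The partners thus differed in value in both libraries, although both genes lie within chr14:55578123-55591113. The highest peak of Psme2 was centred at -487.5 bases from its coding start in replicate 1 and at -347.5 in replicate 2, where negative positions are upstream. It was shared with Rnf31, which encodes a subunit of a ubiquitin ligase complex. In replicate 1 this peak lay 408 bases from the nearest Psme2 start. A separate peak over the start had a value of 6.59 there, also above that of Psme1. In replicate 2 the highest peak covered the start. Psme3, the nuclear activator PA28 gamma, had 6.27 in replicate 1 and 5.88 in replicate 2. Psme4, the activator PA200, had 7.97 and 4.82 in replicates 1 and 2. Psme2b, an annotated copy of Psme2 at chr11:48945354-48946190, had no promoter peak in either library. Reads that match both copies could be placed at either or discarded, and the labels do not state how they were handled.

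**Figure D2:**
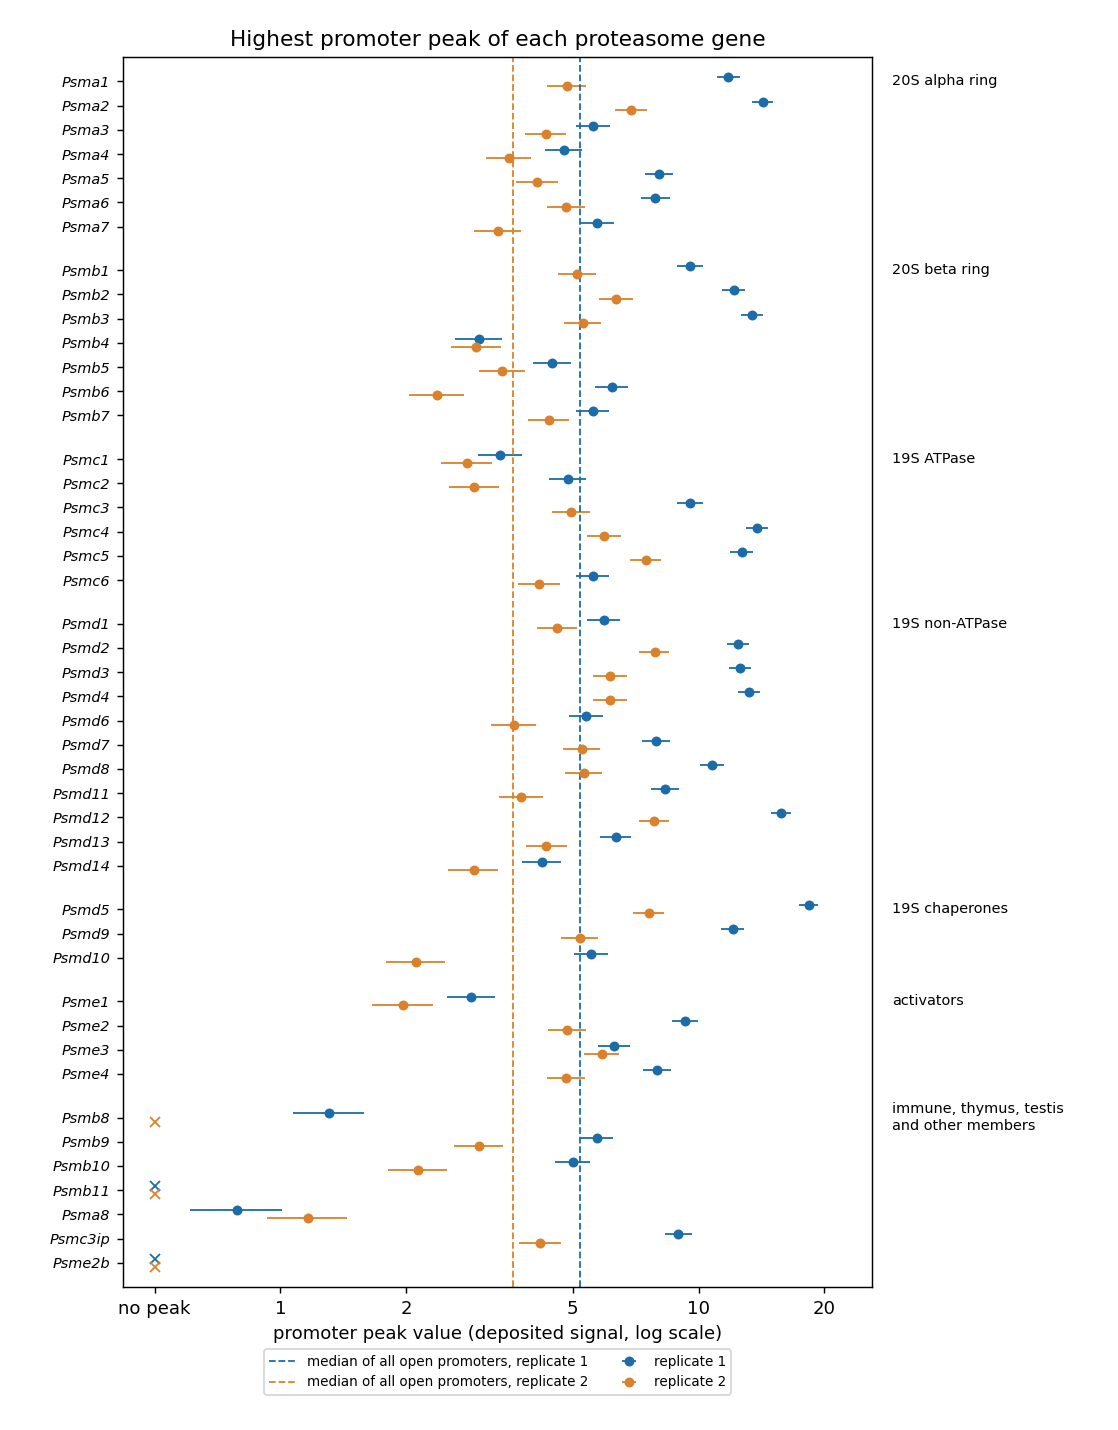
Highest promoter peak of each of the 45 genes (rows, by role) on the deposited signal scale (horizontal axis, log scale), with exact 95% counting intervals, for replicate 1 and replicate 2. Crosses mark genes with no promoter peak in that library, and dashed lines mark the median of all open protein-coding genes, 5.21 in replicate 1 and 3.60 in replicate 2. The 31 constitutive subunits all have a value in both libraries, and Psmb8, Psmb11 and Psme2b carry the crosses.

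Set against the constitutive subunits, the 5 immune, thymus and testis subunits were open in fewer cases and had lower medians. All 31 constitutive subunits were open in both libraries, with medians of 7.91 and 4.59 in replicates 1 and 2. Of the 5 others, 4 were open in replicate 1, with a median of 3.15, and 3 in replicate 2, with a median of 2.13. Over all protein-coding genes 58.5% were open in replicate 1 and 55.4% in replicate 2. The count of these 5 genes was thus above the share of genes at large in replicate 1 and near it in replicate 2. The groups overlapped, since 10 constitutive subunits in replicate 1 and 5 in replicate 2 lay below the highest of the immune, thymus and testis values. In each library that highest value belonged to Psmb9. Promoter class also differed between the groups. By the gene record, 28 of the 31 constitutive subunits had a CpG-rich promoter, and of the 5 others only Psmb9 had one. That pair went the other way, since Psmb6, the counterpart of Psmb9, had none. Among all genes without a CpG-rich promoter 28.2% were open in both libraries.

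Psmb5 was set against Psmb8 and Psmb11, which had no peak in 1 or both libraries. Psmb5 was open in both libraries at chr14:54617921-54618140 in replicate 1, over its annotated start at position 54618022. Psmb8 had a peak in replicate 1 only, at chr17:34197602-34197792, with a value of 1.31 and an exact 95% counting interval of 1.07 to 1.58. Psmb5 was 3.42-fold higher in the same library, with an interval of the ratio of 2.74 to 4.28, and the Psmb8 peak was absent from the shorter list. In replicate 2 no stretch below the deposited false discovery rate of 0.05 lay within 1000 bases of a Psmb8 start, while in replicate 1 the lowest rate there was 0.00159. Psmb11 had neither a peak nor such a stretch in either library. Psmb11, annotated at chr14:54621433-54629556, lies next to Psmb5, so neighbouring subunit genes differed.

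Psmb6 and its counterpart Psmb9 were not set apart. Psmb6 had 6.20 in replicate 1 and Psmb9 had 5.71, a 1.09-fold ratio with an interval of 0.956 to 1.24. In replicate 2 Psmb6 had 2.37 and Psmb9 had 2.98, a ratio of 0.795 with an interval of 0.647 to 0.977. The direction therefore differed between the libraries. The Psmb9 peak, at chr17:34187301-34187500 in replicate 1, is also the promoter peak of Tap1, the peptide transporter that feeds antigen presentation and is transcribed in the opposite direction, and the value cannot be divided between the genes. A smaller peak over the Psmb9 gene start itself, at chr17:34187601-34187920, was listed in replicate 1 only, with a value of 1.42.

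Psmb7 and Psmb10 gave a ratio that depended on the library and on the start used. Psmb7 had 5.58 in replicate 1 against 5.0 for Psmb10, a 1.12-fold ratio with an interval of 0.974 to 1.28. In replicate 2 it had 4.38 against 2.13, a 2.05-fold ratio with an interval of 1.69 to 2.50. The Psmb10 peaks that carry these values lie inside the gene, at chr8:105936901-105937200 in replicate 1 and chr8:105936921-105937400 in replicate 2. Their centres are 1393.5 and 1283.5 bases downstream of its coding start at position 105938444, beside annotated starts of transcripts that are not protein-coding. Within 1000 bases of the coding start Psmb10 had smaller peaks, with values of 1.10 in replicate 1 and 1.23 in replicate 2. Their centres were 815 and 740.5 bases downstream of that start, and no listed peak covered the start itself in either library.

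Psma7 and its testis counterpart Psma8 differed in both libraries. Psma7 had 5.72 in replicate 1 and Psma8 had 0.789, a 7.25-fold ratio with an interval of 5.57 to 9.57. In replicate 2 Psma7 had 3.31 and Psma8 had 1.16, a 2.85-fold ratio with an interval of 2.21 to 3.69. Psma8 ranked above 10.3% and 15.5% of open genes, and it was the lowest of the open proteasome genes in each library. Psmc3ip, which the symbol rule takes in although it encodes a partner of meiotic recombinases and no proteasome subunit, had 8.95 in replicate 1 and 4.19 in replicate 2, above 70.4% and 58.1% of open genes.

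**Figure D3:**
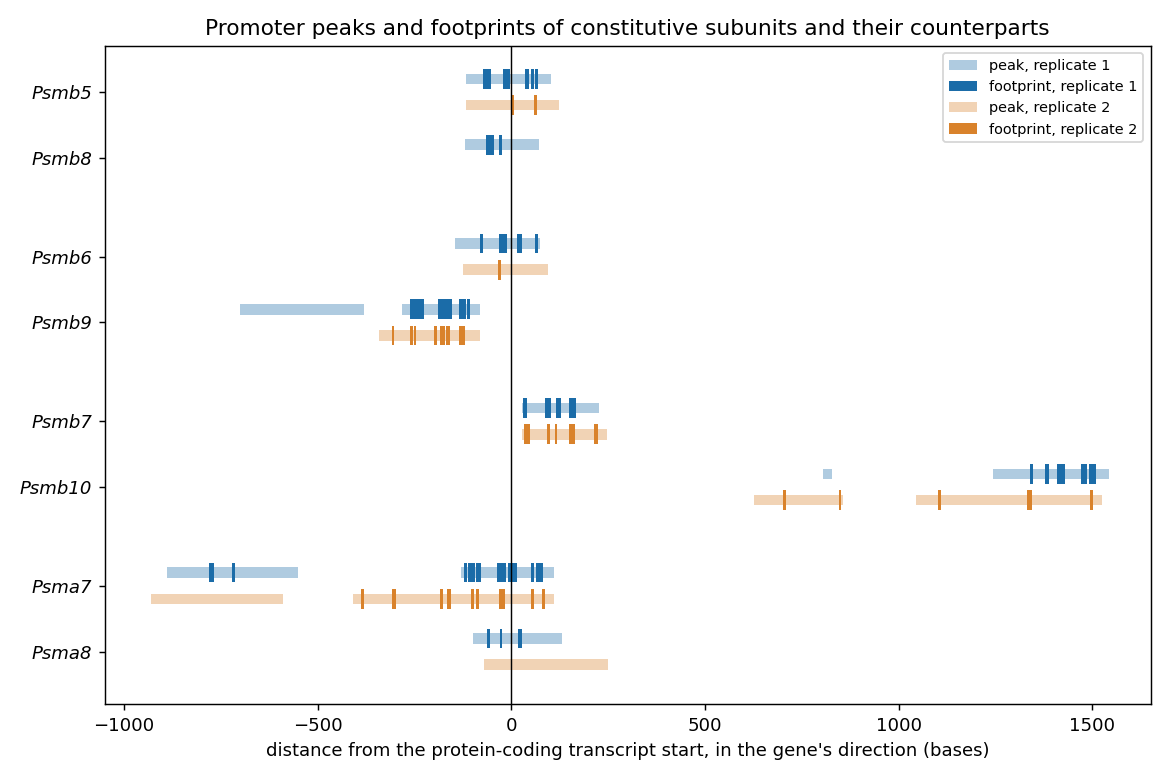
Promoter peaks (pale bars) and footprints (dark bars) of 4 constitutive subunits, each above its immune or testis counterpart, for replicate 1 and replicate 2. The horizontal axis gives the distance in bases, in the gene's direction, from the protein-coding start nearest to the highest replicate 1 peak. For Psmb9 that start is at position 34187219, downstream of the gene start at 34187764. Peaks of Psmb5, Psmb6 and Psma7 lie over the start, the highest Psmb10 peaks are centred 1393.5 and 1283.5 bases inside the gene, Psmb8 has a peak in replicate 1 only, and Psma8 has no footprint in replicate 2.

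Most of the open promoters were centred on the annotated start. The centre of the highest peak lay at a median of -19.5 bases from the nearest coding start in replicate 1 and -6.5 bases in replicate 2. It lay within 150 bases in 39 of 43 genes in replicate 1 and in 39 of 42 in replicate 2, and the peak covered the start in 35 and 37 of them. Psmb9, Psmb10 and Psme2 were centred further away in both libraries, and Psmd1 in replicate 1.

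Of the 42 genes open in both libraries, 10 shared a promoter peak with another protein-coding gene in both, or about the share of 22.9% found over all open genes. Each partner was transcribed in the opposite direction. The pairs were Psma2 with Mrpl32, Psma4 with AY074887, Psma7 with Ss18l1, Psmb1 with Tbp, Psmb9 with Tap1, Psmc2 with Dnajc2, Psmc5 with Ftsj3, Psmd10 with Atg4a, Psmd13 with Sirt3 and Psme2 with Rnf31. Tbp encodes the TATA-binding protein of general transcription and Sirt3 a mitochondrial deacetylase. The starts were 32 bases apart for Psmc2 and Dnajc2, the closest pair, and 595 bases apart for Psme2 and Rnf31, the most distant. The values and footprints of a shared peak belong to both partners. The highest Psmb1 peak of replicate 2, inside the gene, is not the one shared with Tbp.

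Footprints lay in the promoter peaks of nearly all the open genes, as they did across the genome. Replicate 1 had 239 footprints in proteasome promoter peaks and replicate 2 had 231, with a median of 5 per open gene in each library, as over all open genes. A footprint was present in both libraries in 41 of the 42 genes, where 94.2% of all open genes had one, and the exception was Psma8 in replicate 2. Of the replicate 1 footprints 56.1% overlapped one of replicate 2, and of the replicate 2 footprints 68.4% overlapped one of replicate 1. The same shares over all promoter footprints were 48.7% and 60.5%. Footprints had a median length of 12 bases in replicate 1 and 9 in replicate 2. Summed over both libraries Psma3 and Psmb3 had the most, 11 in replicate 1 and 10 in replicate 2 for each gene, while in replicate 2 alone Psmc6 and Psmd14 had 11 each. By that sum Psma7 followed with 10 and 9, Psme3 with 9 and 10, and Psmb1 and Psmd13 with 9 and 8 each, in replicates 1 and 2.

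The motifs below were searched in the footprints on both strands, each footprint widened by 5 bases. ETS was CCGGAA, NFY was CCAAT, the SP/KLF box was GGGCGG, the E-box was CACGTG, the GATA motif was AGATAA, YY1 was ATGGCGG and TATA was TATAAA. The antioxidant response element, ARE, was TGACNNNGC, which also takes in the AP-1 and NFE2 kind of site and overlaps the cyclic AMP response element, CRE, searched as TGACGTCA or TGACGTA. The interferon-stimulated response element, ISRE, was GAAANNGAA. NRF1, nuclear respiratory factor 1, was GCGCATGC or GCATGCGC and is unrelated to the protein of Nfe2l1.

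The ETS match was present in 18 of the 42 genes in each library alone, against 18.2% of open genes in replicate 1 and 15.2% in replicate 2. The 15 with a match in both were Psmb1, Psmb4, Psmb7, Psmb10, Psmc1, Psmc3ip, Psmc5, Psmd2, Psmd4, Psmd7, Psmd10, Psmd14, Psme2, Psme3 and Psme4. They included 9 of the 31 constitutive subunits, 3 of the 4 activators and 1 of the immune subunits, and no gene of the alpha ring. Promoter height differs between these genes and open genes at large. Among genes whose values lay between the lower and upper quartiles of the proteasome values in both libraries, 6 of 15 proteasome genes had the match, or 40.0%, against 15.2% of 2313 such genes in all. The count depends on the widening. Without it 5 of the 42 genes kept a match in both libraries, or 11.9%, against 3.26% of open genes. In the promoter sequence itself, from 250 bases before to 50 bases after the start in RefSeq, CCGGAA was present in 19 of 41 windows of these genes, or 46.3%, against 28.1% of the windows of open genes. For the constitutive subunits it was 15 of 27 windows, or 55.6%. These windows cover 38 of the 45 genes, since some have several.

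The SP/KLF box was the most frequent motif, in 20 of the 42 genes, a share of 47.6% that is close to the 46.6% of open genes. NFY was matched in 6 of the 42 genes, or 14.3%, against 11.4% of open genes: Psma3, Psma5, Psmb2, Psmb3, Psmc3ip and Psme3. In Psmb3 and Psma3, the genes with the most footprints over both libraries together, a CCAAT box lay beside the start. CRE was matched in both libraries in Psmb2, NRF1 in Psma2, ISRE in Psmb4 and YY1 in Psmd1, 1 gene each of the 42, where the shares of open genes were 3.51%, 5.80%, 0.438% and 3.64%. In Psmb4 the ISRE letters overlap the ETS match printed above. GATA, E-box and TATA were matched in both libraries in none of the 42, against 0.514%, 2.70% and 0.733% of open genes.

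ARE is the motif through which Nfe2l1 is known to raise the transcription of proteasome genes when the protease is inhibited. It was matched in both libraries in 3 of the 42 genes, or 7.14%, against 3.47% of open genes, and these were Psmb3, Psmb6 and Psmd9. The Psmb3 match lay in a separate upstream peak 739 bases from any start. Its footprints were centred at -841 and -845.5 bases from the gene start in replicates 1 and 2. Psmb5 had a match in replicate 1 only and Psmb10 in replicate 2 only. In the promoter windows it was present in 6 of 41, or 14.6%, against 14.4% of the windows of open genes. The footprints with the match in the catalytic subunits Psmb5 and Psmb6 and the chaperone Psmd9 are printed with 5 flanking bases, and capitals mark the match. The Psmb8 footprint of replicate 1, which lay in the weak peak of that gene and held a CRE, is given beside them.
Psmb5, replicate 1, chr14:54618021-54618048, minus strand: aagttgTGACGTCGCggcgttgccagtc
Psmb6, replicate 1, chr11:70525348-70525371, plus strand: TGACGGAGCgctttacgacggttg
Psmb6, replicate 2, chr11:70525347-70525364, plus strand: gTGACGGAGCgctttacg
Psmd9, replicate 2, chr5:123228152-123228181, plus strand: tagccggTGACCCCGCccacttccaagctc
Psmb8, replicate 1, chr17:34197651-34197680, plus strand: gcccggtgtgTGACGTCAgcagttcctggg

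**Figure D4:**
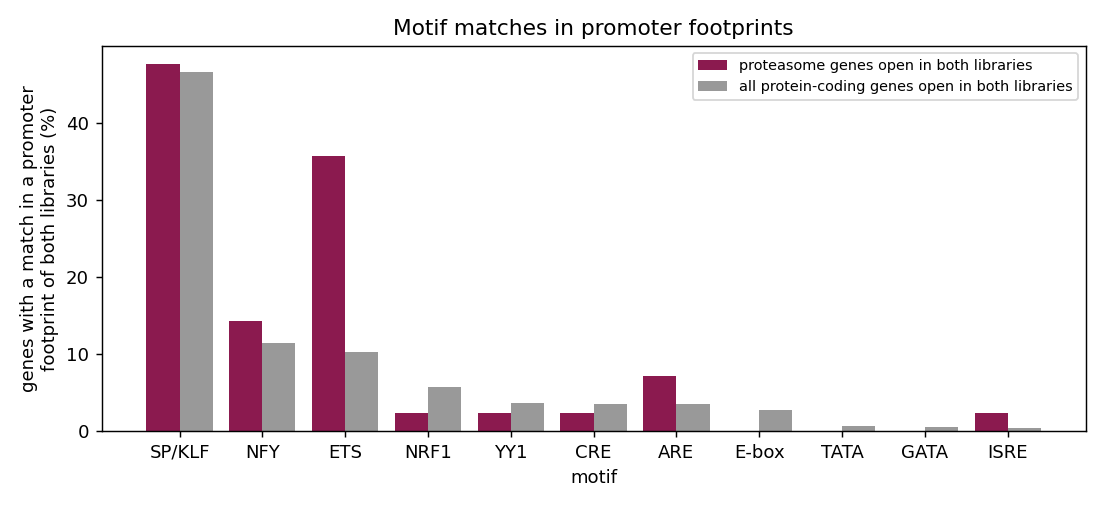
Share of genes (vertical axis, percent) with a match to each motif in or within 5 bases of a promoter footprint of both libraries, for the 42 proteasome genes open in both libraries (left bar of each pair) and all protein-coding genes open in both (right bar). ETS is at 35.7% against 10.3%, and SP/KLF at 47.6% against 46.6%.

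Values of strong peaks were lower in replicate 2 than in replicate 1 across the genome, so the ratio of the libraries was read against peaks of like height. The log2 ratio of replicate 2 to replicate 1 had a median of -0.84 over proteasome promoters and -0.70 over all open promoters. After the running median over shared peaks was taken off, the median of the 41 proteasome genes whose highest peaks overlapped between the libraries was 0.06, against 0.03 over all genes. For all genes the excess ran from -0.56 at the 5th percentile to 0.64 at the 95th. Psma8 and Psme3 lay above that range, at 0.88 and 0.71, and Psmb4 was next at 0.55. Psmd10, Psmb6 and Psmb10 lay below it, at -0.80, -0.75 and -0.64. The range leaves out both ends of the distribution by definition, so a few genes outside it do not set the proteasome genes apart. Psma8 also rests on few reads, 64 and 84 if 1 signal step is 1 read. The highest Psme3 peak was 220 bases wide in one library and 460 in the other, so different stretches were compared. With 1 library per replicate the excess of a gene cannot be tested.

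**Figure D5:**
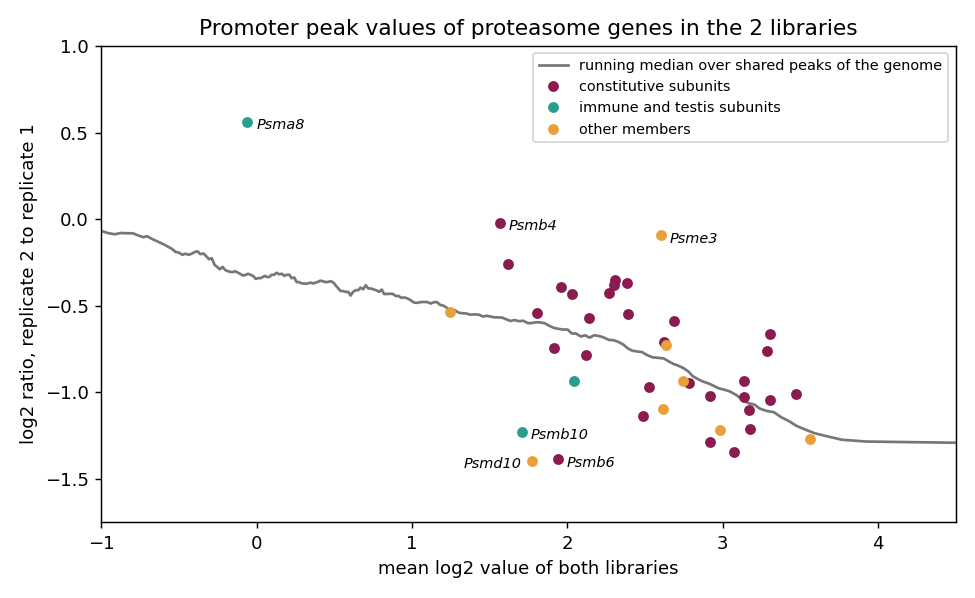
Log2 ratio of replicate 2 to replicate 1 (vertical axis) against the mean log2 value of both libraries (horizontal axis) for the 41 proteasome genes whose highest peaks overlap, with the running median over shared peaks of the genome as a line. Most points lie along the line, with a median excess of 0.06, and Psma8, Psme3, Psmb4, Psmb10, Psmb6 and Psmd10 stand furthest from it.

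Genes that work with the proteasome but fall outside the symbol rule were open as fully as the constitutive subunits. The list held other cap subunits, core assembly chaperones, ubiquitin genes, shuttle factors and regulators, and 29 of its 30 symbols matched the annotation. All 29 were open in both libraries, against 54.1% of all protein-coding genes and 86.6% of those with a CpG-rich promoter. Their median was 9.98 in replicate 1, against 5.21 over all open genes, and 5.79 in replicate 2, against 3.60. The highest by mean rank was Rad23b, a shuttle factor that delivers ubiquitinated proteins, with 26.6 in replicate 1 and 12.7 in replicate 2. Nfe2l2, a regulator of the oxidative stress response that binds the ARE, had 22.6 and 8.0 in replicates 1 and 2. The polyubiquitin gene Ubb had 16.2 in replicate 1 and 7.5 in replicate 2. Nfe2l1 had 14.4 in replicate 1 and 5.25 in replicate 2. Among genes of antigen processing, Tap1, Tap2, Tapbp and Irf1 were open in both libraries. Nlrc5, the activator of MHC class I and immunoproteasome genes, had no promoter peak in either.

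The libraries held 47198 peaks in replicate 1 and 36523 in replicate 2, with 123897 and 94430 footprints. Markers of the erythroid lineage were open in 7 of 8 cases in both libraries, where 54.1% of all protein-coding genes were. Alas2 was open in replicate 1 only. Of 6 hepatoblast markers 3 were open in both, near that share, while Alb, Hnf4a and Dlk1 had no promoter peak in either. Of the macrophage markers Spi1 was open in both, and Adgre1, Csf1r and Cd68 in neither. None of the 4 lymphoid and thymic markers was open. Of the 4 germ cell markers Dazl was open in both libraries and Sycp3 in replicate 1 only. Of the neuron and muscle markers 1 of 4 was open. The tissue was taken whole, so the share of cells of a type and the openness per cell cannot be told apart, and the part of the cell types in the values above was not tested.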

How the data were processed

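Both libraries were mapped to mm10, per the labels. The authors deposited, per library, a longer and a shorter peak list with a signal value per peak, footprints with a constant score, and stretches of the cut rate with a p-value type of measure, a false discovery rate below 0.05. The labels name no aligner, caller or threshold. The deposited signal rises in fixed steps of 0.0123 in replicate 1 and of 0.0139 in replicate 2. On the assumption that 1 step is 1 read, the depth was about 81200000 reads in replicate 1 and 72100000 in replicate 2. The exact 95% Poisson intervals need that assumption and hold counting error alone.

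Starts came from all transcripts of GENCODE vM21. A peak counted within 1000 bases of any start. A CpG-rich promoter had observed over expected CpG above 0.6 and GC above 50%. The running median spanned 1001 of 26687 peaks that overlapped 1 to 1. Promoter windows and chromosomes were RefSeq sequences of GRCm38.p6. Python 3.11.15, numpy 2.4.6, pandas 2.3.3, scipy 1.17.1 and bedtools 2.31.1 were used, and the overlap and step steps were tested on simulated data. Genes were named by a rule: all immune, thymus and testis subunits, activators and chaperones, the 5 highest and 5 lowest constitutive subunits by mean rank, genes without a peak, the 3 highest and 3 lowest library ratios, the 5 with most footprints, and the 3 highest pathway genes. The genes, lists, motifs and rules were chosen with earlier results of these data known. No comparison between groups was possible with 1 group. Nfe2l1 and the genes of the printed footprints were picked after their values were seen. The result of 1 gene of the pathway lists is not reported here.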

Additional observations from a re-analysis of the deposited data

How the results depend on the processing

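Across the peak lists, distances, starts, values and backgrounds tried, 75 of the recomputed values were labelled close to those reported and 3 moved. The label was wide, so the count of 75 says little about stability. Medians were judged against 2.41, the standard deviation between the medians of the libraries. The replicate 1 median of 7.89 counted as close at 6.303, with the gene record's own start. It also counted as close at 10.02, with the sum of a promoter's peaks. The median excess log2 ratio of the libraries, 0.06, changed sign to -0.07 when read against the median of all open promoters. It was labelled close because it lay within -0.08 to 0.20, a 95% order-statistic interval of the median over 41 genes. That interval holds the spread among genes and not between libraries, so the sign of the median excess is not settled. Genes with a match to any of the motifs in a footprint of both libraries numbered 34, and 20 when footprints were not widened. The ETS match alone, an alternative added after seeing the data, was present in 15 genes, and in 5 when footprints were not widened. The immune, thymus and testis subunits open in both libraries numbered 3, and 1 among CpG-rich promoters, where fewer genes were counted. With 1 library left out the open genes numbered 42 to 43, the constitutive subunits 31 to 31, the immune, thymus and testis subunits 3 to 4, the genes of the pathway and antigen processing lists together 34 to 34, the genes with a footprint 41 to 43 and the ETS matches 18 to 18. Starts of protein-coding transcripts only, also added after seeing the data, left 42 genes open in both. Using the gene record's own start left 39, since the records of Psma6, Psmd5 and Psmd9 begin far upstream. No paired analysis was possible because both libraries belong to 1 group.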
